A study of Mus musculus with 24 samples.

Results

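Liver transcripts of mice fed a diet with 1.0% quercetin were set against those of mice fed 0.1% quercetin. The 12 arrays were chosen by their labelled diet, 6 of each, out of 24 in the series. Quercetin, a plant flavonol, was mixed into AIN93G, a purified rodent diet that the mice of every group ate for 14 days. All were male BALB/c mice obtained at 6 weeks of age and first kept for a week on a nonpurified diet, with a 12 h light and 12 h dark cycle. The other 12 mice ate AIN93G alone (control) or with 0.5% quercetin, 6 in each group, and their values are given beside the main comparison where they place it. The mice lived 3 to a cage, which cage each mouse came from was not used here, and cage and diet cannot be told apart where a cage holds 1 diet. Each array holds whole liver RNA of 1 mouse, so a change in the share of a cell type and a change in RNA per cell cannot be told apart.

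Levels are log2 of the deposited intensity plus 1 after quantile normalization, and each of 18193 genes is represented by 1 probe set. A difference is 1.0% minus 0.1% on that log2 scale with its standard error (SE) from limma, folds are on the same scale and understate changes of dim genes, and a gene passed where its Benjamini-Hochberg adjusted p was under 0.05. Median intensities ran from 5.53 to 7.23 on the 1.0% arrays and from 5.68 to 7.38 on the 0.1% arrays. All 11 measured hepatocyte markers were brighter than 98.4% of probe sets, and 9 of 19 Kupffer cell and macrophage markers, 4 of 21 stellate cell and matrix markers, 2 of 14 endothelial markers, 1 of 8 erythroid markers and 1 of 10 pancreas acinar markers were brighter than 90% of them. No measured neutrophil, lymphocyte, bile duct, adipocyte or skeletal muscle marker reached that level. On the first principal component, which held 9.15% of the variance, 4 arrays stood apart. They were replicates 4 and 5 of the 1.0% group and replicates 4 and 6 of the 0.5% group. Whether replicate numbers follow cages was not tested. Replicate 2 of the 1.0% group stood apart on the second component, and replicate 6 of that group had the highest 18S ribosomal RNA signal of these 12 arrays (10.04 against at most 8.17 on the others).

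The liver runs a daily clock in which the Arntl and Clock proteins bind E-box elements and switch on Per, Cry and Nr1d genes, whose products feed back as repressors. Dbp, Tef and Hlf carry this rhythm to output genes through D-box elements, and Nr1d1 and Nr1d2 repress Arntl, Nfil3 and Npas2 through ROR elements. The same tissue makes and stores glucose, builds and burns fatty acids, and conjugates plant compounds such as quercetin. The hour at which each mouse was killed was not used here, and clock genes change through the day.

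Altogether 46 genes passed, 21 higher and 25 lower at 1.0%, which is 0.253% of the genes tested (0.115% higher and 0.137% lower). Absolute log2 differences of these genes ran from 0.48 to 3.96 with a median of 0.95, and 21 of them differed by at least 2-fold. In 42 of the 46 genes the 6 mice of the 1.0% group did not overlap the 6 of the 0.1% group (18 higher and 24 lower), a state found in 1.06% of all genes (0.517% higher and 0.544% lower). The genes with the smallest p included clock genes (Dbp, Tef, Nr1d2 and Cry1), Csad of taurine synthesis, and the Kruppel-like factor genes Klf9 and Klf10. Genes of glucose output and glycogen (G6pc and Ppp1r3c) were among those that fell. With 1 mouse at 1.0% left out the count was 38, 48, 25, 24, 24 or 22 (replicates 1 to 6 in order). With 1 mouse at 0.1% left out it was 20, 19, 25, 46, 18 or 31 (in the same order). With the 4 arrays apart on the first component left out the count was 31, of which 23 were among the 46. It was 6 without normalization between arrays and 124 when genes dimmer than the median gene were left out, and 16 of the 46 genes passed in each of the 12 fits that left out 1 array.

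**Figure D1:**
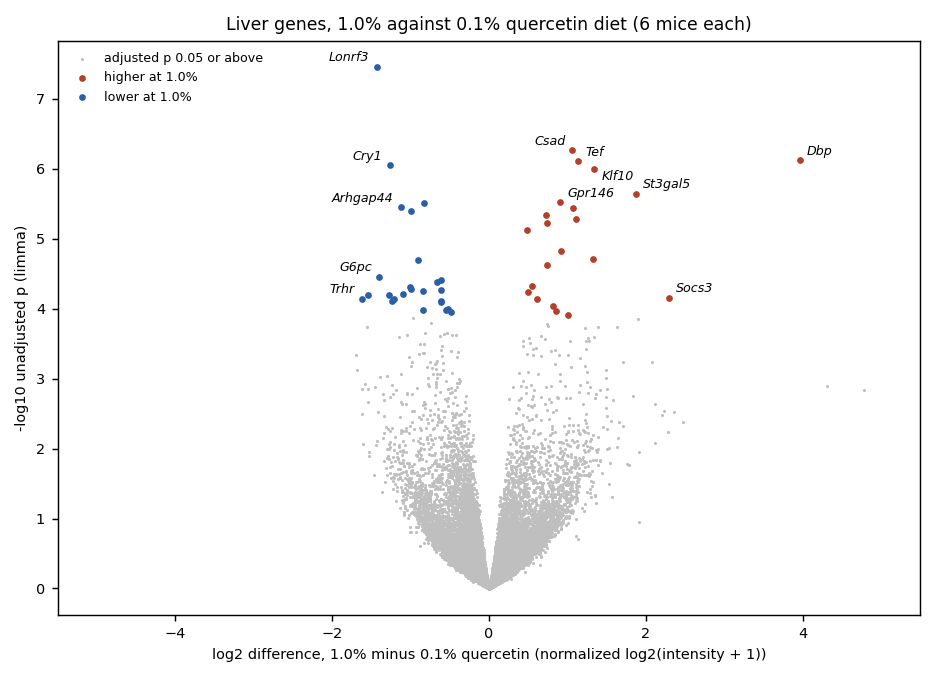
Log2 difference of each of 18193 genes between the 1.0% and 0.1% quercetin diets (x) against the unadjusted p of limma on a -log10 scale (y), 6 mice per group. Red points are the 21 genes higher at 1.0% and blue points the 25 lower genes at an adjusted p under 0.05, with Dbp farthest to the right among them at 3.96.

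Promoter sequence is shown for genes whose upstream window holds letters of a clock element, since clock genes stand among those with the smallest p. The windows are the 250 bases before the annotated start in RefSeq (GRCm38.p6), and Tef has 2 such windows, of which 1 is printed. The search covered both strands for the E-box CACGTG, the D-box TTANGTAA and the ROR element TAGGTCA, which do not overlap in the printed windows, and was chosen after the values were seen. Capitals mark the matches, printed 5′ to 3′ on the gene's strand. The windows lie at chr15:81802423-81802672 (plus strand) for Tef, chr10:85185055-85185304 (minus strand) for Cry1, chrX:36328159-36328408 (plus strand) for Lonrf3 and chr11:101367466-101367715 (plus strand) for G6pc.
Tef: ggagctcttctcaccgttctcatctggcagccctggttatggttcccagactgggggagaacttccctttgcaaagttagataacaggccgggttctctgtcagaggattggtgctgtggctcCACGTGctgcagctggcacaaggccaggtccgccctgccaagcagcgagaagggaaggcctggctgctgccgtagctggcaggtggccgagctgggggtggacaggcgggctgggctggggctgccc
Cry1: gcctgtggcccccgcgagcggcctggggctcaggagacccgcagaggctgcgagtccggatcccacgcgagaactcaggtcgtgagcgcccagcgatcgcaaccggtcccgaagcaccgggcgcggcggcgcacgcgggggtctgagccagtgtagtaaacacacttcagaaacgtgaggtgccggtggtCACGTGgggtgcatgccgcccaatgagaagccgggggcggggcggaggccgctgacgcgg
Lonrf3: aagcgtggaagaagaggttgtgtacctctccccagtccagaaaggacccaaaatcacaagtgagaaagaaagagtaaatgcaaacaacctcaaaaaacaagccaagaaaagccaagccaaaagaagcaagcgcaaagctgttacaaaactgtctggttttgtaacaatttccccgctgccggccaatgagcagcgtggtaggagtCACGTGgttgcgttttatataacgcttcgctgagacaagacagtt
G6pc: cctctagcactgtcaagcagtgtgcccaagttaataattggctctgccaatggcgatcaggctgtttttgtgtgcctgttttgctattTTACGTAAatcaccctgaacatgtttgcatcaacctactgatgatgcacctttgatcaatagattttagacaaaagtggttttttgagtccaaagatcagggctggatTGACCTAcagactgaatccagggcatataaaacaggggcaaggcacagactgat
The first 3 windows hold 1 E-box each, and the G6pc window holds a D-box and, on the other strand, a ROR element. Of the 46 genes that passed, 38 had a window, and 8 of these (21.1%) had an E-box: Tef, Lpin2, Lonrf3, Cry1, Ppp1r3c, Bnip3, Nr0b2 and Paxx. An E-box stood in 6.86% of all 27025 genes with a window, which were not limited to the 18193 genes tested. Counted by window, it stood in 18% of the 50 windows of genes that passed and in 6.02% of all 32851. The D-box stood in 2 of the 38 genes (5.26%, against 2.44% of all genes) and the ROR element in 1 (2.63%, against 2.55%). Dbp and Nr1d2 had none of these matches, whether for want of the letters or of a window. The printed windows were chosen because they hold a match. These shares are descriptions with no test.

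The circadian clock list had 20 measured genes, of which 3 rose and 1 fell, with 13 positive differences and a median of 0.57. Over all genes the median was -0.02 and 47.1% of differences were positive. Dbp (probe set 1438211_s_at), a transcription factor gene of the clock's output, ran from 6.80 to 9.40 with a median of 8.68 at 1.0%, against 3.68 to 6.48 with a median of 4.04 at 0.1%. Every mouse at 1.0% was above every mouse at 0.1%, although the lowest mouse at 1.0% and the highest at 0.1%, both replicate 4, stood close to each other. Its log2 difference was 3.96 (SE 0.58, adjusted p = 0.00302), a 15.6-fold rise. Tef (1424175_at), which encodes a related factor, ran from 6.89 to 7.82 (median 7.37) at 1.0% and from 6.05 to 6.44 (median 6.14) at 0.1%, without overlap. It rose 2.2-fold (log2 1.13, SE 0.17, adjusted p = 0.00302). Nr1d2 (1416958_at), the gene of the repressor REV-ERB beta, ran from 8.02 to 8.86 (median 8.56) at 1.0% and from 7.08 to 8.17 (median 7.33) at 0.1%. The groups overlapped through the highest mouse at 0.1%, and the difference was 1.06 (SE 0.17, adjusted p = 0.00599).

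Cry1 (1433733_a_at), a repressor of the clock, was the member that fell. Its levels ran from 3.77 to 4.49 (median 4.12) at 1.0% and from 5.18 to 5.57 (median 5.41) at 0.1%, so the groups stood well apart. The difference was -1.27 (SE 0.19, adjusted p = 0.00302), or 2.41-fold lower at 1.0%. Dbp, Tef, Nr1d2 and Cry1 passed in each of the fits that left out 1 array and without the 4 arrays that stood apart, where their differences were 4.51, 1.33, 1.21 and -1.27.

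The other 16 clock genes did not pass, and those beyond the 4 with the smallest p were chosen for naming after their values were seen. Arntl, the activator gene, ran from 3.27 to 5.75 at 1.0% and from 5.65 to 6.32 at 0.1% (difference -1.56, SE 0.35, adjusted p = 0.0618). Npas2, an activator gene related to Clock, differed by -1.68 (adjusted p = 0.119) and Nfil3, a repressor at D-box elements, by -0.83 (0.0781). Clock itself differed by -0.24 (0.644). Among repressor genes, Nr1d1 differed by 0.89 (0.0899), Bhlhe40 by 0.79 (0.0867), Per3 by 2.08 (0.104), Per1 by 1.25 (0.511), Cry2 by 0.39 (0.716) and Ciart by 0.76 (0.735). Per2 (0.22) and Rora (-0.06) had differences smaller than their SE, and both changed sign when another probe set or the mean of their probe sets was used. Bhlhe41 (-0.38), Hlf (0.26), Usp2 (1.30) and Wee1 (0.92) had adjusted p from 0.331 to 0.888.

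The control mean lay between the 2 quercetin means for Dbp, Tef, Nr1d2 and Cry1. Dbp averaged 6.62 in control, 4.50 at 0.1%, 7.56 at 0.5% and 8.47 at 1.0%, and Cry1 averaged 4.55, 5.38, 4.47 and 4.11 in the same order. The 0.1% mean was farther from control than the 1.0% mean was for 10 of the 46 genes and nearer for the rest. The share over all genes was not computed. Among the 10 were Dbp (-2.12 at 0.1%, 1.84 at 1.0%), Cry1 (0.83 and -0.44), Tef (-0.60 and 0.53), Nr1d2 (-0.59 and 0.48), Klf10 (-1.05 and 0.29) and Lonrf3 (0.82 and -0.61). None of these 12 differences from control passed, and they share the control arrays. Of the 46 genes, 44 had the control mean between the 2 quercetin means, as had 37.5% of all genes, and 39 had the 0.5% mean between them, as had 34.0% of all genes. The choice of genes by this very contrast bears on those shares.

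**Figure D2:**
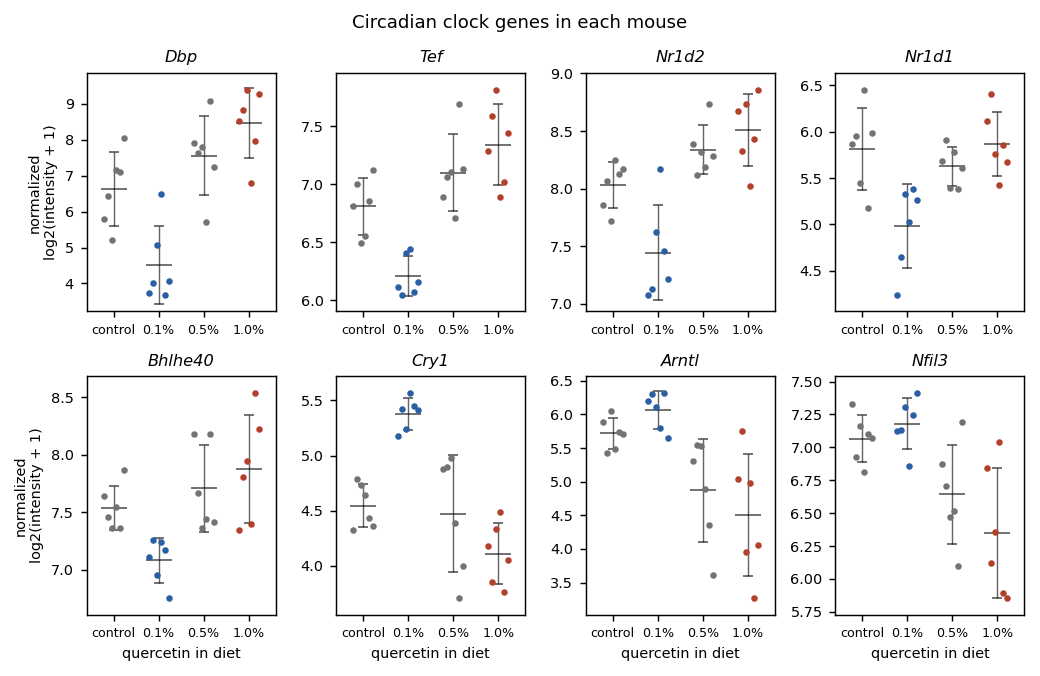
Normalized log2(intensity + 1) of 8 clock genes in each of 24 mice by diet (points), with the group mean and SD (n = 6) as bars. Dbp, Tef and Nr1d2 passed as higher at 1.0% than at 0.1% and Cry1 as lower, with the control mean between; Nr1d1, Bhlhe40, Arntl and Nfil3 did not pass.

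Other regulators were among the genes with the smallest p. Lonrf3 (1436200_at), which encodes a RING finger protein with a LON domain, had the smallest of all. It ran from 3.50 to 4.22 (median 3.76) at 1.0% and from 5.04 to 5.45 (median 5.28) at 0.1%, and no mouse of either group came near the other. It fell 2.7-fold (log2 -1.43, SE 0.17, adjusted p = 0.000632). Klf10 (1416029_at), a Kruppel-like factor gene on the immediate early list, ran from 6.16 to 7.40 (median 6.89) at 1.0% and from 5.26 to 5.93 (median 5.46) at 0.1%, a 2.53-fold rise (SE 0.20 on a log2 difference of 1.34, adjusted p = 0.00302). Klf9 (1428288_at), a Kruppel-like factor gene induced by glucocorticoids, was bright in every mouse, at 9.61 to 10.17 at 1.0% and 9.02 to 9.28 at 0.1%, and rose 1.66-fold (adjusted p = 0.00639). Pnrc1, the gene of a nuclear receptor coactivator, fell 1.77-fold (-0.82, SE 0.13, adjusted p = 0.00599). With the mean of its probe sets Pnrc1 differed by -0.57 and did not pass (adjusted p = 0.463). On the immediate early list 1 of 20 genes rose and the median was 0.13, and Jun (-1.13, adjusted p = 0.125) and Dusp1 (-0.98, adjusted p = 0.22) did not pass.

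Csad (1427981_a_at) encodes cysteine sulfinic acid decarboxylase, which makes hypotaurine on the way to taurine. Its levels were 6.91 to 7.89 (median 7.22) at 1.0% and 6.10 to 6.32 (median 6.24) at 0.1%. All mice at 1.0% lay above the 0.1% group, whose 6 mice lay close together. The rise was 2.09-fold (log2 1.06, SE 0.15, adjusted p = 0.00302). Its means in control, 0.1% and 0.5% mice were 6.26, 6.22 and 6.29, and its mean at 1.0% was 7.29. On the taurine and cysteine list Csad was the 1 of 15 measured genes that passed, and 12 of the 15 differences were negative (median -0.11). Got1, cytosolic aspartate aminotransferase, which also acts on cysteine sulfinate, ran from 7.47 to 7.75 at 1.0% and from 8.14 to 9.03 at 0.1% without overlap (-0.98, adjusted p = 0.0527).

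Genes of glucose and glycogen metabolism were lower at 1.0% where they passed. G6pc (1417880_at), the catalytic subunit of glucose-6-phosphatase that releases free glucose, ran from 8.33 to 9.93 (median 8.91) at 1.0% and from 10.12 to 10.62 (median 10.41) at 0.1%. The spread was wider at 1.0%, yet the groups did not overlap. It fell 2.65-fold (log2 -1.40, SE 0.27, adjusted p = 0.0302) and was the 1 of 17 gluconeogenesis and fasting genes that passed, with 7 positive differences and a median of -0.10. Pdk4, a kinase that holds back pyruvate oxidation, differed by -1.45 (SE 0.39, adjusted p = 0.153), and Foxo1, a factor that drives gluconeogenic genes, by 0.35 (adjusted p = 0.331). Ppp1r3c (1433691_at), which targets protein phosphatase to glycogen, ran from 8.11 to 9.22 (median 8.89) at 1.0%, against 9.74 to 9.89 (median 9.80) at 0.1%, and fell 2.02-fold (log2 -1.01, SE 0.20, adjusted p = 0.0355). It was the 1 of 14 glycolysis and glycogen genes that passed (median -0.12). The related Ppp1r3b (-1.02, adjusted p = 0.0928) and Pygl, liver glycogen phosphorylase (-0.31, adjusted p = 0.186), also did not overlap between the groups but did not pass, nor did Pklr, liver pyruvate kinase (-0.52, adjusted p = 0.301).

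The PPAR-alpha target list, which holds genes of fatty acid oxidation and peroxisomes, had 28 of 32 measured genes with a positive difference, a median of 0.16, and 2 genes that rose. Pex11a (1449442_at), a gene of peroxisome division, ran from 8.06 to 8.80 (median 8.40) at 1.0% and from 7.56 to 7.79 (median 7.71) at 0.1%, and rose 1.66-fold (log2 0.73, SE 0.12, adjusted p = 0.00717). Eci2 (1431012_a_at), an enoyl-CoA isomerase for unsaturated fatty acids, ran from 9.38 to 9.84 (median 9.76) at 1.0% and from 8.90 to 9.47 (median 9.14) at 0.1%, overlapping through replicate 2 of the 1.0% group, and rose 1.47-fold (adjusted p = 0.0355). Decr2, a peroxisomal reductase in the same pathway, differed by 0.42 (adjusted p = 0.266). Without the 4 arrays that stood apart the list had 28 positive differences with a median of 0.22 and none passed, Pex11a at an adjusted p of 0.0524 and Eci2 at 0.144.

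In the fatty acid and triglyceride synthesis list 24 of 32 differences were negative, the median was -0.13, and the single gene that passed went up. Lpin2 (1452836_at), a phosphatidate phosphatase of triglyceride synthesis, ran from 7.43 to 8.46 (median 7.94) at 1.0%, against 6.71 to 7.09 (median 6.88) at 0.1%, a 2.15-fold rise (log2 1.10, SE 0.18, adjusted p = 0.00668). With the mean of its probe sets Lpin2 differed by 0.88 and did not pass (adjusted p = 0.21). Srebf1, the regulator of lipogenic genes, ran from 6.18 to 8.25 at 1.0% and from 8.27 to 8.82 at 0.1% (-1.24, SE 0.34, adjusted p = 0.153), with a wide spread among the mice at 1.0%. Elovl6, an elongase, differed by -0.89 (adjusted p = 0.0899) and Scd1, stearoyl-CoA desaturase, by -0.66 (0.125). On the cholesterol synthesis and uptake list 0 of 21 genes passed in limma, with 3 at an unadjusted p under 0.05 (9.42% of all genes were), and Sqle, squalene epoxidase, differed by 1.01 (0.336).

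Among genes of bile acids, drugs and cofactors, Nr0b2 (1449854_at), the nuclear receptor SHP that curbs bile acid synthesis, ran from 7.61 to 8.43 (median 8.10) at 1.0% and from 8.69 to 9.58 (median 9.33) at 0.1%. It fell 2.32-fold (log2 -1.21, SE 0.25, adjusted p = 0.0371) as the 1 of 25 bile acid and sterol handling genes that passed, and the list median was -0.06. Abcb11, the bile salt export pump, differed by -0.27 (adjusted p = 0.295). Nr1i2 (1425723_at), the gene of the drug sensor PXR, ran from 5.74 to 6.34 at 1.0% and from 5.19 to 5.68 at 0.1%, and rose 1.53-fold (log2 0.61, SE 0.13, adjusted p = 0.0371). It was the 1 of 26 CAR and PXR genes that passed, and of the 26 differences 17 were negative (median -0.13), with Cyp3a44 at -0.89 (adjusted p = 0.239) and Ces2a at -0.26 (0.338). Coq8a (1417066_at), needed for coenzyme Q synthesis, ran from 7.72 to 8.73 at 1.0% and from 8.89 to 9.25 at 0.1%, and fell 1.8-fold (log2 -0.85, SE 0.17, adjusted p = 0.0361), while Coq10b of the same list differed by 0.85 (adjusted p = 0.218). Slc30a10 (1439934_at), a manganese exporter, ran from 6.16 to 6.68 at 1.0% and from 6.92 to 7.26 at 0.1%, and fell 1.59-fold (log2 -0.67, SE 0.13, adjusted p = 0.0327). Without the 4 arrays that stood apart, Nr0b2, Nr1i2 and Coq8a had adjusted p of 0.0679, 0.0627 and 0.0521. With the mean of its probe sets Nr1i2 differed by 0.56 and did not pass (adjusted p = 0.201).

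**Figure D3:**
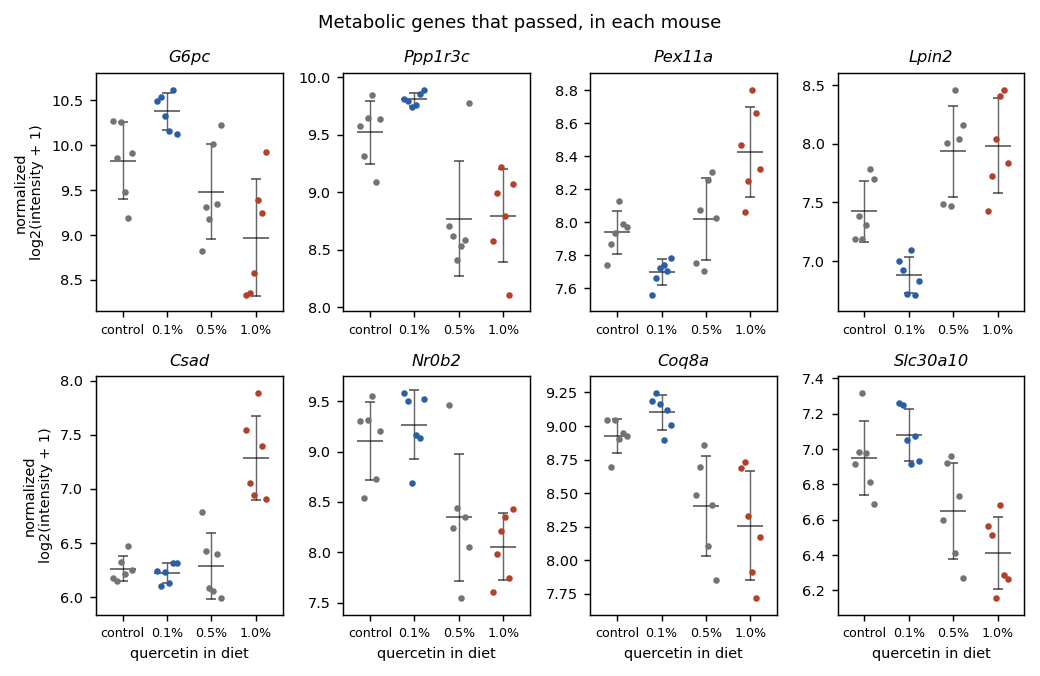
Normalized log2(intensity + 1) of 8 metabolic genes that passed between 1.0% and 0.1%, in each of 24 mice by diet (points), with the group mean and SD (n = 6). Csad averaged 6.26 in control and 6.22 in 0.1% mice and was 6.91 or more in every mouse at 1.0%, and the other 7 genes had 0.5% means between those at 1.0% and 0.1% or, for Ppp1r3c, just below the 1.0% mean.

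Genes for the handling of quercetin and oxidants gave no calls. Over all genes 0.253% passed, and no call in lists of this size is near that share. Of 21 flavonoid conjugation and efflux genes 0 passed, with 5 at an unadjusted p under 0.05 in limma (3 higher and 2 lower). Of 32 Nrf2 and glutathione genes 0 passed, with 9 at such a p (6 higher and 3 lower). Of 11 aryl hydrocarbon receptor genes 0 passed, with 2 at such a p (1 higher and 1 lower). The share of all genes at such a p was 9.42%. The list medians were -0.07, 0.03 and 0.21. Sult1a1, a phenol sulfotransferase, ran from 9.79 to 10.13 at 1.0% and from 10.09 to 10.62 at 0.1% (-0.40, adjusted p = 0.153). Ugt2b37, a glucuronosyltransferase, differed by 2.12 with an SE of 0.73 (adjusted p = 0.332). Nqo1, a quinone reductase induced through both Nrf2 and the aryl hydrocarbon receptor, differed by 0.57 (0.621), and Cyp1b1, an aryl hydrocarbon receptor target, by 1.12 (0.321). Pgd, an NADPH-making enzyme, did not overlap between the groups (-0.75, adjusted p = 0.104), and Ephx1 (0.32) and Aox1 (0.27) had adjusted p of 0.289 and 0.301. Over the 14 measured superoxide dismutase, catalase and peroxidase genes differences ran from -0.41 to 0.14.

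Genes of cytokine feedback, acute phase, heat shock and metal binding had wide spreads at 1.0%. Socs3 (1455899_x_at), the feedback inhibitor of IL-6 signalling, ran from 5.51 to 7.59 (median 6.93) at 1.0% and from 3.97 to 4.94 (median 4.42) at 0.1%. It rose 4.91-fold (log2 2.30, SE 0.47, adjusted p = 0.0371) as the 1 of 18 IL-6 and SOCS genes that passed, and 2 other probe sets of the gene went the same way at an unadjusted p under 0.05. The list had 14 positive differences and a median of 0.48, or 0.31 without the 4 arrays that stood apart, where Socs3 differed by 2.39 with an adjusted p of 0.0562 and no member passed. Cebpb, a factor that drives acute phase genes, differed by 1.15 (adjusted p = 0.153), Socs2 by 2.11 (0.193) and Pim1, a kinase gene downstream of cytokines, by 0.48 (0.239).

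Mt1 and Mt2 encode the metallothioneins, which bind zinc and copper. Mt1 ran from 7.47 to 12.62 (median 10.02) at 1.0% and from 4.77 to 6.30 (median 5.76) at 0.1%. Mt2 ran from 6.10 to 12.11 (median 9.07) at 1.0% and from 3.59 to 4.99 (median 4.22) at 0.1%. Neither gene overlapped between the groups, replicates 4 and 5 were the highest of the 1.0% group in both, and the means were farther apart than for any gene that passed. The differences were 4.30 (SE 1.17, adjusted p = 0.153) and 4.79 (SE 1.31, adjusted p = 0.157), and 3.04 and 3.33 without the 4 arrays that stood apart (adjusted p = 0.0771 and 0.104), so neither passed. On the metallothionein and metal transport list the single gene that passed was Slc30a10, and Slc39a14, a zinc and manganese importer, differed by 0.82 (adjusted p = 0.222).

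The glucocorticoid-responsive list had 12 of 17 positive differences, a median of 0.62 (0.30 without the 4 arrays) and 1 gene that rose, Klf9. Its differences ran from -0.98 to 4.79, and in limma 7 members were higher and 4 lower at an unadjusted p under 0.05. The acute phase list had 21 of 25 positive differences with a median of 0.15, falling to 16 and 0.09 without the 4 arrays, and the heat shock list had 14 of 19 with a median of 0.33, against 10 and 0.07. In limma 0 genes of either list passed, with 8 (7 higher and 1 lower) and 7 (7 higher and 0 lower) at an unadjusted p under 0.05, as were 9.42% of all genes. Steap4, a metalloreductase gene, reached 10.49 and 10.46 in replicates 4 and 5 at 1.0%, with 7.77 to 8.77 in the other 4 mice of that group, against 7.11 to 7.68 at 0.1% (2.83-fold, adjusted p = 0.345). Lcn2, which binds bacterial siderophores, differed by 1.91 (adjusted p = 0.357) and Orm3 by -1.39 (0.133). Hsph1 differed by 1.23 (adjusted p = 0.321), Hspb8 by 0.75, Dnaja1 by 0.67 and Hspa8 by 0.56, all chaperone genes. Neutrophil markers had 11 of 13 positive differences with a median of 0.29 and 0 that passed, with 2 at an unadjusted p under 0.05. Their mean level per mouse ran from 3.11 to 3.56 at 1.0% and from 2.66 to 3.28 at 0.1%, and S100a8 differed by 0.89 (adjusted p = 0.59). The part of these markers, and of replicates 4 and 5, in the acute phase and cytokine values was not tested.

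**Figure D4:**
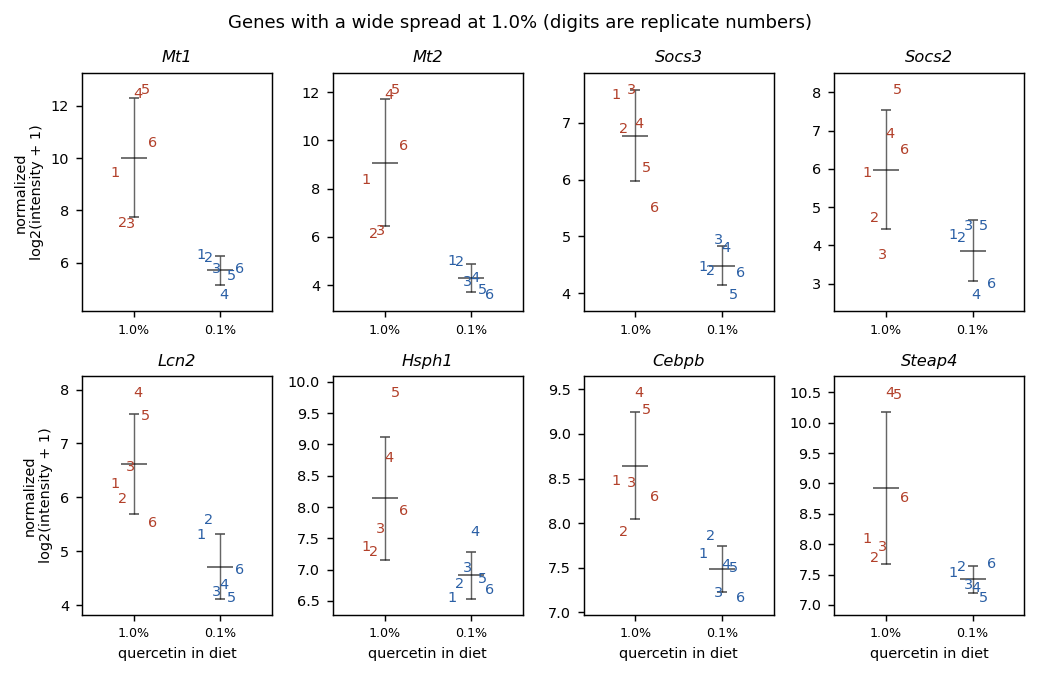
Normalized log2(intensity + 1) of 8 genes on the 1.0% and 0.1% diets, with digits giving the replicate number of each mouse and bars the mean and SD (n = 6). Replicates 4 and 5 of the 1.0% group are the 2 highest for Mt1, Mt2, Socs2, Lcn2, Hsph1, Cebpb and Steap4 but not for Socs3, the 1 gene of the 8 that passed.

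In the unfolded protein response list 0 of 24 genes passed in limma, with 7 at an unadjusted p under 0.05 (3 higher and 4 lower), as were 9.42% of all genes. Herpud1 and Xbp1, induced by stress in the endoplasmic reticulum, differed by 1.03 (adjusted p = 0.0737) and 0.83 (0.105), and the chaperone gene Pdia4 by -0.56 (0.22). Herpud1 averaged 10.61 in control, 9.50 at 0.1%, 10.85 at 0.5% and 10.53 at 1.0%. Among urea and amino acid genes 0 of 24 passed, with 7 at an unadjusted p under 0.05, including Asl of the urea cycle (-0.40, adjusted p = 0.0928) and Hal, which breaks down histidine (-0.52, 0.176). Alas1, the first enzyme of heme synthesis, differed by 0.74 (adjusted p = 0.571). The 40 respiratory chain genes lay between -0.43 and 0.08 and the 29 coagulation and complement genes between -0.20 and 0.09. Of the 47 lists, 34 had no member that passed, where 0.253% of all genes passed. Of the 46 genes that passed, 17 were on a list.

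**Figure D5:**
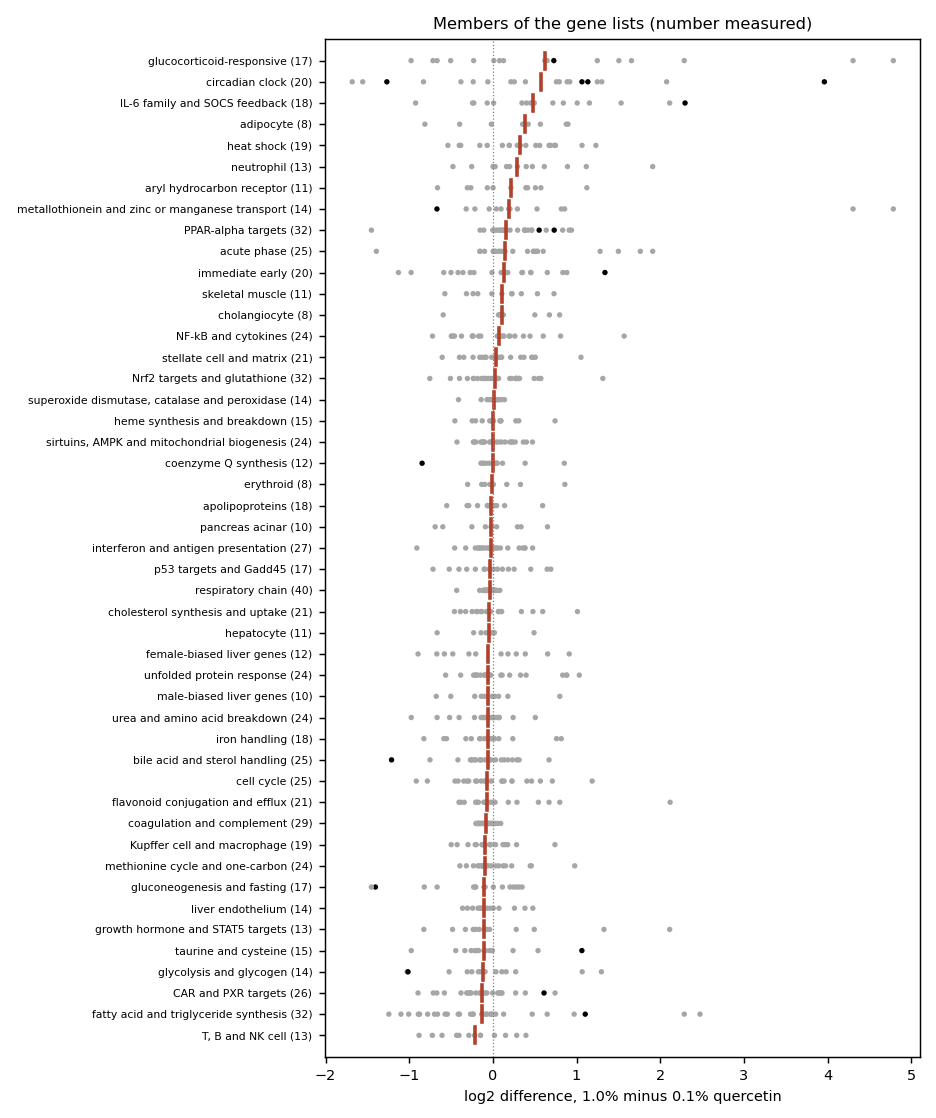
Log2 difference between the 1.0% and 0.1% quercetin diets for each measured member (points) of 47 gene lists, ordered by list median (red bars). Black points passed at an adjusted p under 0.05, and the glucocorticoid, clock and IL-6 lists have the highest medians (0.62, 0.57 and 0.48), against -0.02 over all genes.

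Of the remaining genes named by smallest p, St3gal5 (1460241_a_at), the sialyltransferase that makes ganglioside GM3, ran from 6.93 to 8.33 (median 7.44) at 1.0% and from 5.55 to 6.09 (median 5.69) at 0.1%. It rose 3.66-fold (log2 1.87, SE 0.29, adjusted p = 0.00586). Gpr146 (1454685_at), an orphan receptor gene, ran from 6.77 to 7.60 at 1.0% and from 6.03 to 6.55 at 0.1%, and rose 1.87-fold (adjusted p = 0.00599). Mtss1, whose product bends membranes at the actin cortex, rose 1.89-fold (0.016). Saal1 rose 1.4-fold (0.00859), but another of its probe sets went the opposite way at an unadjusted p under 0.05. Among the falls, Arhgap44 was 2.18-fold lower (-1.12, adjusted p = 0.00599). It was dimmer than the median gene, and with a pseudocount of 16 its difference was only -0.41 (adjusted p = 0.00641). Lnx2, a ubiquitin ligase gene, was 1.99-fold lower (-0.99, 0.00613). Rnf125, another ubiquitin ligase gene, ran from 9.36 to 10.29 at 1.0% and from 10.54 to 11.07 at 0.1% (-0.99, 0.0361). Tsga10 (-0.91), Blcap (-0.61) and Dexi (-0.61) passed with adjusted p from 0.0194 to 0.0361. Without the 4 arrays that stood apart, Mtss1, Saal1, Rnf125 and Dexi had adjusted p of 0.0679, 0.0627, 0.0627 and 0.0949.

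The last 15 named genes that passed were chosen for naming after their values were seen. Of these, 5 rose: Slc22a5, the carnitine importer (0.74), Gne, the first enzyme of sialic acid synthesis (0.49), Bnip3, a mitophagy receptor (0.82), Dnase2a, a lysosomal nuclease (0.85), and Fbxo31, an F-box gene (1.01). Another 10 fell, among them the adhesion genes Celsr1 (-1.54), Itga5 (-1.28) and Cdh1 (-0.62), Lgalsl (-1.24), the choline transporter Slc44a1 (-0.52), and Etnppl, which breaks down phosphoethanolamine (-0.84). Paxx of DNA end joining (-0.61), the threonyl-tRNA synthetase gene Tars (-0.55) and Alg10b of N-glycan assembly (-0.49) were the others with a size. Trhr was at 0.11 to 0.35 at 1.0% and 1.39 to 2.17 at 0.1%, brighter than 8.94% of probe sets and near the floor, so no size is given, and it passed in 0 of the 12 fits that left out 1 array. Adjusted p in these 15 genes ran from 0.0214 to 0.0487, and the groups of Dnase2a and Itga5 overlapped. With the mean of their probe sets Gne, Etnppl, Itga5 and Alg10b kept their direction but did not pass (adjusted p from 0.271 to 0.667).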

How the data were processed

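Liver RNA of each mouse was hybridized as biotin-labelled cRNA to 1 Affymetrix mouse array, per the labels' protocols. The authors deposited 1 table of intensity values on a linear scale for 45101 probe sets, and how these were computed from the scans (software, background, probe summary) is not given in the sources used here. Here log2(intensity + 1) was quantile-normalized over 24 arrays, 64 control probe sets were left out, and each of 18193 genes was represented by the probe set with the highest mean. Symbols were those of the array annotation, where 34945 probe sets carried 1 symbol, 932 had several and 9160 had none. All 24 arrays entered 1 fit in limma 3.58.1 (R 4.3.3) with eBayes, two-sided tests and Benjamini-Hochberg adjustment over all genes. The fit was tested on simulated data.

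Genes named were the 12 rises and 12 falls with the smallest p (clone names skipped), and from each of 47 gene lists those that passed and the leading members by p, up to 4; 819 of 913 list genes had a value and the others were not analysed here. The groups, lists and genes were chosen with earlier results of these data known. No pairing of mice by replicate number was seen, with correlations of same-numbered arrays from -0.0374 to 0.00876 over 6 pairs. They were not taken on whole-array levels, where the highest correlation of arrays was 0.997. The labels count mice as replicates, and precision is limited by how many arrays there are. Where a cage holds 1 diet it is also limited by how many cages there are, and the main fit treated mice as independent. Alternatives were the normalization, the pseudocount, the choice of probe set, filters, eBayes options, array weights, a replicate block, sets of 3 replicates, a fit of 12 arrays and arrays left out. Promoters came from RefSeq.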

Additional observations from a re-analysis of the deposited data

Results flagged for a closer look

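In 210 groups of 6 mice (105 genes at each of the 2 doses), 9 groups (4.29%) held 1 mouse far from the others, where chance flags about 1 in 20 groups. Of these, 5 were at 1.0% and 4 at 0.1%. At 1.0%, Lgalsl was 5.11 in replicate 5 with the next mouse higher at 6.50, and Dusp1 was 7.29 in the same replicate with the next at 8.39. Replicate 2 was lowest for Eci2 (9.38, next 9.69) and for Wee1 (3.79, next 4.75), and replicate 3 was lowest for Npas2 (1.52, next 2.60). At 0.1%, replicate 2 was highest for St3gal5 (6.09, next 5.74) and lowest for Nqo1 (1.41, next 3.21). Replicate 4 was lowest for Pdk4 (3.92, next 5.40) and replicate 6 for Clock (5.79, next 6.05).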

How the results depend on the processing

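The count of 46 genes (21 higher, 25 lower) moved with the processing. It was 6 (3 and 3) without normalization between arrays and 20 (8 and 12) with arrays centred on their medians. A pseudocount of 16 gave 111 (51 and 60), leaving out genes dimmer than the median gene 124 (56 and 68), and trended robust eBayes 91 (37 and 54). It was 28 (17 and 11) with every probe set tested, 10 (6 and 4) in a fit of the 12 arrays and 22 (14 and 8) with sets of 3 replicates as a random effect. Without little-varying genes it was 4, of which 2 were among the 46 (4 higher and 0 lower, with 275 lower genes at an unadjusted p under 0.05). Cry1 and Lonrf3 kept their differences in that fit, at adjusted p of 0.377 and 0.205. A test against a fold of at least 1.5 gave 0 (0 and 0) in limma, with 111 genes at an unadjusted p under 0.05 (68 and 43). Without the 2 arrays with high 18S signal it was 24 (13 and 11), an alternative chosen after seeing the data, as was leaving out replicates 2, 4 and 5 at 1.0% with 2 arrays at 0.5% (32, of which 15 lower). Without the 4 arrays apart on the first component it was 31, of which 16 lower. With 1 array left out it ran from 18 to 48, the higher genes from 13 to 24 and the lower from 5 to 24. The replicate block gave 39, with 35 shared. The mean of probe sets gave 34, with 30 shared, and array weights 44, with 41 shared. All 46 genes kept their direction without the 4 arrays. Signs turned for Saal1 (-0.47 with the mean of probe sets), Trhr (0.0064 with a pseudocount of 16), Per2 (-0.56 with every probe set tested, -0.14 with their mean) and Rora (0.64 and 0.14 in the same order, 0.025 without high 18S arrays, 0.0036 without replicates 2, 4 and 5, and -0.17 to 0.109 with 1 array left out). The cause was not tested. The filters change how many genes are tested and also which genes eBayes uses for its shared estimate of spread, and left-out arrays lower the number of samples.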

Other observations

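Without the 4 arrays that stood apart, 8 genes passed that had not passed over all arrays: Tmem120a, Irs1, Tubb2a, Cldn1, Tacc2, Chka, Mcm10 and Rcl1. They were chosen for naming after their values were seen. Among all 45037 probe sets that are not controls, 35 passed (21 higher and 14 lower at 1.0%), and 5 of these had no single gene symbol. The clone names C730036E19Rik (1.33, adjusted p = 0.0194) and C730049O14Rik (-1.10, adjusted p = 0.0365) were the 2 genes among the 46 with no other symbol.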
